A study of Drosophila melanogaster with 2 samples.

Results

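Candidate binding entries of the architectural protein ZIPIC that lie in assembled sequence next to centromeres or on chromosome 4 are described here. On the dm6 build of the Drosophila melanogaster genome, an entry was taken when its summit lay on 2L at 22000000 or above, on 3L at 22900000 or above, on 3R at 4200000 or below, on X at 22000000 or above, or anywhere on chromosome 4. These positions chose 850 of the 30000 entries of the pooled candidate list, 115 on 2L, 274 on 3L, 138 on 3R, 82 on X and 241 on chromosome 4. Binding strength played no part in the choice. The 5 zones cover 13.8 Mb, beside 120 Mb in the rest of the 6 assembled arms. The rule takes no stretch of 2R or of the Y chromosome.

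The lists come from chromatin immunoprecipitation and sequencing (ChIP-seq) with an anti-GFP antibody. The chromatin was from whole embryos, males and females pooled and 0 to 24 h old, of a transgenic line that stably expresses ZIPIC (CG7928) with GFP at its C terminus. Both samples were of this 1 group and are biological replicates numbered 2 and 3, and no untagged line or second condition was analysed here. Whole embryos mix all tissues, and the labels do not give the promoter that drives the fusion or the state of the endogenous gene. Each replicate has its own list of 30000 candidate entries, which holds peaks together with weaker background. The 2971 optimal peaks of the series were the 2971 strongest pooled entries by the authors' signal value, a score whose scale is not given.

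ZIPIC binds DNA through zinc fingers and recruits the insulator cofactor CP190, and its sites are known mainly from promoters and domain borders of the chromosome arms. DNA next to fly centromeres is packed as heterochromatin, marked by methylated lysine 9 of histone H3 and by HP1a, and is rich in transposable elements and short tandem repeats. Genes inside it are active despite this packing and often have very long introns. Chromosome 4 is a small chromosome in which HP1a and the chromosome-specific protein POF cover many active genes. Reads from repeats often match several places, so that alignment and the state of the assembly bear on what a peak list can hold in these zones.

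The sequence content of the zones followed their label. Repeat-masked (lower-case) bases made up between 28.1% of chromosome 4 and 44.2% of the 3R zone, against 18.0% of the rest of the arms. Within 100 bp around the summit, members had on average 24.5% masked bases and the other pooled entries 16.2%. The summit lay in an annotated transposable element in 111 members (13.1%) and in 157 of the 29150 entries elsewhere (0.539%). Histone marks were not analysed here.

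The sequences at the strongest members show which of them carried the known ZIPIC string CAGGGCTG. The 4 optimal members with this string within the 100 bp around the summit are given first, on the plus strand of dm6, with the string or its reverse complement in capitals. At fuss and stnB the whole 100 bp is shown, and at the starts of CG14613 and CG12576 only 30 bases, since these windows run into untranslated sequence.
fuss, chr4:980042-980141: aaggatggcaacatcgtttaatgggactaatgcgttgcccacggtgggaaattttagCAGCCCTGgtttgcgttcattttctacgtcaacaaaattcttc
CG14613, chrX:22472033-22472062: atgttaagtaaCAGGGCTGgcgatagtagg
CG12576, chrX:22482366-22482395: atatctgacgtCAGGGCTGcatggacttcg
stnB, chrX:23005211-23005310: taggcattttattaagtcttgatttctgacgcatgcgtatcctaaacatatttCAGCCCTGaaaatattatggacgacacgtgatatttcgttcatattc

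The next 3 are the strongest members without the string, and nothing in them is in capitals. The first is the only optimal member outside X and chromosome 4, and the 100 bp shown are almost wholly a short tandem repeat. The other two lie between genes of chromosome 4.
end of 2L, chr2L:23512818-23512917: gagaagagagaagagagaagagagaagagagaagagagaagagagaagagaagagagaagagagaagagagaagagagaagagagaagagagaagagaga
near lncRNA:CR43437, chr4:424768-424867: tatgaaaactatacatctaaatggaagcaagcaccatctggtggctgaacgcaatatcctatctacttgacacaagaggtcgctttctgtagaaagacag
upstream of zfh2, chr4:497869-497968: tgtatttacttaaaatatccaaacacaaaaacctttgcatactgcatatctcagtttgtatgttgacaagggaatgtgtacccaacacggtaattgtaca

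The first question was how many entries near centromeres and on chromosome 4 reached the optimal list. Of the 850 members 18 did, which is 2.12% (exact Clopper-Pearson 95% interval 1.26 to 3.33), against 9.90% of all 30000 pooled entries. Here and below such intervals cover counting error over entries only. Outside the zones 2953 of 29150 entries were optimal (10.1%). Per assembled length this came to 1.30 optimal peaks per Mb in the zones and 24.6 per Mb elsewhere. In the pooled list, the members of all zones together were also fewer per Mb (61.5 against 243 elsewhere). They were weaker, with a median pooled signal of 41.6 against 48.2 for the entries elsewhere.

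The zones differed among themselves. Optimal peaks made up 6 of 82 entries on X (7.32%), 11 of 241 on chromosome 4 (4.56%, interval 2.30 to 8.02) and 1 of 115 on 2L (0.870%). None of 274 entries on 3L and none of 138 on 3R were optimal, with upper interval bounds of 1.34% on 3L and 2.64% on 3R. The X interval, 2.73 to 15.2, held the share of all entries, and the pooled chromosome 4 interval lay below it. By replicate, 8 of 153 chromosome 4 entries of replicate 2 were among its 2971 strongest (5.23%, interval 2.28 to 10.0, which holds 9.90%), and 8 of 386 of replicate 3 (2.07%, interval 0.899 to 4.04). Per length, chromosome 4 had 179 pooled entries per Mb, the arm ends together 48.9 and the rest of the arms 243. The gap between chromosome 4 and the arm ends was in replicate 3 (286 and 14.9 per Mb) and not in replicate 2 (113 and 113 per Mb).

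The weakest optimal peak of the whole list had a signal of 126.0, and the strongest entry below it had nearly the same value. Among the members, the weakest inside was at RpS3A (signal 128) and the strongest outside lay in the 3′ part of Cals (signal 115). The 18 optimal members had a median signal of 181, and all 2971 optimal peaks had a median of 209. After joining overlapping entries, the 18 formed 16 separate intervals, because the strongest peaks at CG14613 and at CG12576 each overlap a weaker listed peak. These overlapping pairs are on X, and the X counts and shares above and below take each listed peak separately.

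**Figure D1:**
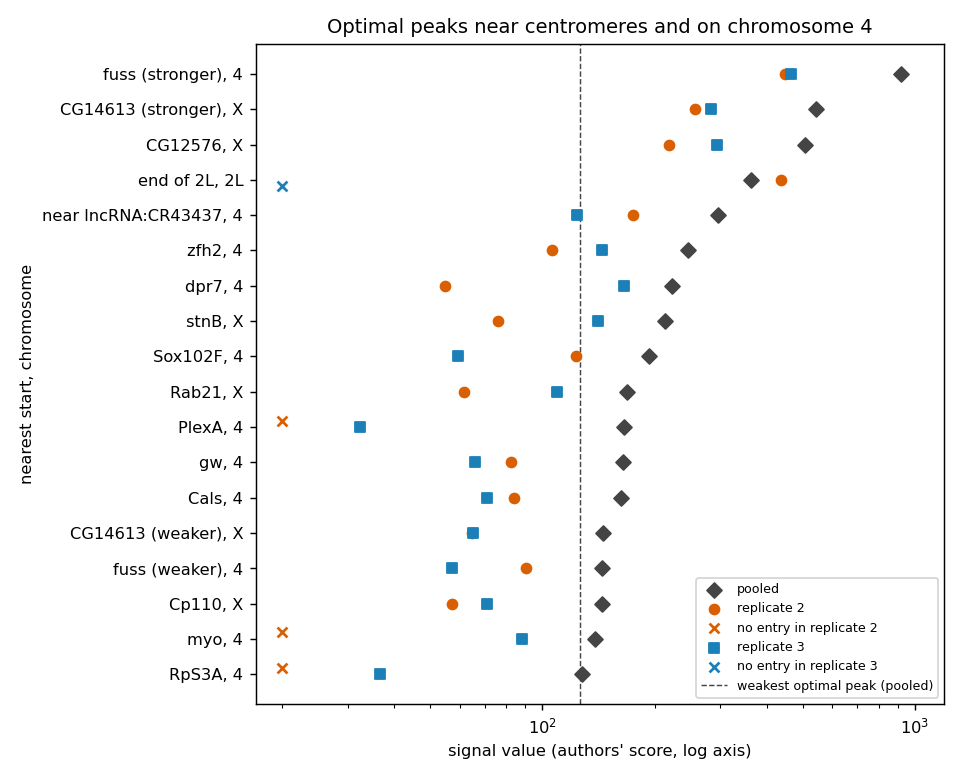
Signal value (the authors' score, log axis) of the 18 optimal members in the pooled list (diamonds), replicate 2 (circles) and replicate 3 (squares), by the gene with the nearest start and its chromosome. Crosses at the left edge mark peaks with no entry in a replicate's list, which are 3 in replicate 2 and 1 in replicate 3, and the dashed line is the weakest optimal signal.

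The 4 strongest peaks, from fuss to the end of 2L, had a pooled signal of 362 or more, and the next peak had 296. The strongest member (chr4:979898-980243) lay between genes, 1603 bp upstream of fuss, which encodes a Ski and Sno family co-repressor. Its signal was 448 in replicate 2 and 464 in replicate 3, and 919 in the pooled list, where it ranked 398. On the other side, at 9633 bp, starts toy, a Pax6 transcription factor gene of eye development. A second optimal peak in the same interval (chr4:982801-983210) had 90.5 in replicate 2 and 57.3 in replicate 3.

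The strongest X member (chrX:22471926-22472172) lay 31 bp upstream of CG14613, with a signal of 258 in replicate 2 and 283 in replicate 3. The next (chrX:22482244-22482577) lay 11 bp upstream of CG12576 and inside the 5′ UTR of Cp110, which encodes a protein that caps centrioles. CG12576 and Cp110 are transcribed in opposite directions. This peak had 219 in replicate 2 and 294 in replicate 3. These first 3 peaks were among the strongest of both replicates, each at a rank between 380 and 674.

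The peak at the end of 2L (chr2L:23512718-23513008) behaved otherwise in the replicates. It had a signal of 437 in replicate 2, where it ranked 421, and no entry in replicate 3, while the pooled signal was 362. All of the 100 bp around its summit was repeat-masked, and its summit was 844 bp from the assembled end of the arm. The unit AAGAGAG, with a period of 7 bp, filled 48.5% of the interval and 57.4% of the 704 bases beyond it in runs of at least 4 units. Only 4 such runs were found on the 6 arms, 3 of them in the 2L zone. By any overlap, 2 of the 4 had a pooled entry, 1 an entry in replicate 2 and 1 an entry in replicate 3. These overlap counts do not show which run met the replicate 3 entry. The nearest annotated start was 96952 bp away, at the pseudogene CR41519. The part that the repeat and the nearness of the assembled end have in this peak was not tested.

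A further 5 optimal members lay outside promoters, 4 of them between genes. The peak near lncRNA:CR43437 (chr4:424726-424906) had 175 in replicate 2 and 123 in replicate 3, at 1249 bp from the start of that non-coding RNA. One peak (chr4:497820-497932), 3891 bp upstream of zfh2, a zinc-finger homeodomain transcription factor gene, had 106 and 144 in the same order. The X peak near the stoned locus (chrX:23005172-23005372) lay 613 bp upstream of stnB, just beyond the 500 bp taken as a promoter, with 76.0 in replicate 2 and 141 in replicate 3. stnA and stnB, both needed for synaptic vesicle recycling, have the same coordinates in the annotation, so that the peak belongs equally to both. Between myo, a TGF-beta family ligand gene, and ey, the other Pax6 gene of this chromosome, lay a peak at 773 bp from myo and 861 bp from ey (chr4:696623-697032). It had no entry in replicate 2 and 88.2 in replicate 3. The peak in 3′ UTR sequence where Cals and sv overlap (chr4:1113092-1113501) had 83.7 in replicate 2 and 71.0 in replicate 3. Cals encodes a calsyntenin and sv a Pax2 transcription factor.

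The remaining optimal members lay at promoters, here a summit within 500 bp of any annotated start. On chromosome 4, dpr7, which encodes an immunoglobulin-domain surface protein, had a peak (chr4:253270-253457) with 54.7 in replicate 2 and 166 in replicate 3. Sox102F, an HMG-box transcription factor gene, had one in an intron, 188 bp from a start (chr4:807330-807739), with 123 in replicate 2 and 59.3 in replicate 3, the opposite order. At gw, which encodes the GW182 protein of microRNA silencing, an intronic peak 82 bp from a start (chr4:659860-660269) had 82.1 and 65.9. PlexA, a semaphorin receptor gene, and RpS3A, a ribosomal protein gene, had no entry in replicate 2. Their signals in replicate 3 were 32.3 at PlexA and 36.6 at RpS3A, beside 165 and 128 in the pooled list. On X, a peak (chrX:23013236-23013645) lay between the opposed starts of Rab21, an endosomal GTPase gene, and Coa7, a cytochrome oxidase assembly factor gene. It had 61.7 in replicate 2 and 109 in replicate 3. The 2 weaker peaks that overlap those at CG14613 and CG12576 had 64.8 and 65.1 at CG14613, and 57.2 and 71.0 at Cp110, in replicates 2 and 3.

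The 5 strongest members outside the optimal list were also on chromosome 4 and X. They lay in Cals (signal 115), beside lncRNA:CR45010 on X (112), 675 bp from a start of Asator, a tau-tubulin kinase gene (112), near Sox102F (110) and 77 bp upstream of Arl4, a small GTPase gene (110). The entries at Asator and Arl4 were listed in replicate 3, with 103 and 69.0, and not in replicate 2.

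In all, 10 of the 18 optimal members were at promoters (55.6%, interval 30.8 to 78.5), 5 of 6 on X and 5 of 11 on chromosome 4. Among optimal peaks elsewhere the share was 68.5%, inside that interval. Over all entries the zones and the rest stood further apart, with 115 of 850 members (13.5%) and 28.7% of the entries elsewhere at promoters. By zone the share ran from 5.80% on 3R to 35.4% on X, and the median distance from summit to the nearest start was 18875 bp on 3R and 1358 bp on X, against 1680 bp elsewhere.

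The 850 members lay mostly in introns (47.8%) and between genes (32.2%), near the 48.2% and 32.1% of all entries. On 3R 64.5% of the members were intronic. Myo81F, a myosin gene 1966 kb long, held 41 entries, and the neighbouring Pzl, which encodes a Piezo-like channel and is 709 kb long, held 20. On chromosome 4, 56 of 241 summits (23.2%) fell in coding sequence, against 7.27% of all entries.

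The second question was which genes of the zones, taken as heterochromatic by position only, had ZIPIC peaks at their starts. Of 233 protein-coding genes in the zones 10 had an optimal summit within 500 bp of a start (4.29%, interval 2.08 to 7.75), against 18.4% of all 13945 coding genes. On X these were CG14613, CG12576, Cp110, Rab21 and Coa7, 5 of 59 genes. On chromosome 4 they were RpS3A, dpr7, gw, Sox102F and PlexA, 5 of 80 genes. CG14613, CG12576 and Cp110 lie within 0.5 Mb of the X zone boundary. With arm zones narrower by 0.5 Mb, 14 of the optimal members remained, without the peaks at these 3 genes. None of 37 genes on 2L, 43 on 3L and 14 on 3R had an optimal summit at a start, with upper interval bounds of 9.49%, 8.22% and 23.2%. With any pooled entry counted, 91 of the 233 genes (39.1%) had one at a start, against 51.0% of genes elsewhere.

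A list of 35 symbols, meant for genes of arm heterochromatin, gave 20 genes in the zones. Other symbols lay outside the zones, such as Rab3-GEF, Pkcdelta and sxe2. The symbol Parp matched no gene, so that Parp1, named below, was not counted. None of the 20 had an optimal summit at a start, against 18.4% of all coding genes. A weaker pooled entry stood there at 10, an entry of replicate 2 at 11 and one of replicate 3 at 5, with stnA and stnB counted separately for a shared start. Over all coding genes the shares were 50.8%, 31.8% and 56.5%, so that 10 of 20 in the pooled list is near the general share. The replicate 2 count lies above its general share and the replicate 3 count below its own. The strongest were at Set1, a histone H3 lysine 4 methyltransferase gene, with 59.0 pooled, 35.1 in replicate 2 and 21.4 in replicate 3, and at Dbp80, an RNA helicase gene, with 57.2, 27.8 and 29.1 in the same order. The ribosomal protein gene RpL5 had 49.7, 39.6 and 26.3. RpL15, also a ribosomal protein gene, had 46.6 pooled, 30.4 in replicate 2 and no entry in replicate 3. The same held for cta, a G protein subunit gene of gastrulation, with 38.3 pooled and 29.5 in replicate 2. lt, nvd, vtd and Snap25, which act in vesicle traffic to lysosomes, ecdysone synthesis, sister chromatid cohesion and synaptic release, had no pooled entry at a start, although 2, 5, 3 and 9 entries lay within these genes. All the values at these starts were below the weakest optimal signal.

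Starts outside that list gave no optimal peak on 2L, 3L or 3R either. The strongest pooled entry at any coding start of the 3L zone was at UQCR-11, a gene of a respiratory chain complex, with a signal of 96.9 pooled, 44.7 in replicate 2 and 46.2 in replicate 3. Next were RpL10 (69.9 pooled) and MED21, a Mediator subunit gene (62.4 pooled). The strongest on 2L was at Slmap (59.9 pooled), and on 3R at CG40198 (47.5) and Parp1 (43.4), a poly(ADP-ribose) polymerase gene. The 3R entries were listed in replicate 2 and not in replicate 3, whereas Slmap was listed in replicate 3 (33.4) and not in replicate 2.

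Of 52 chromosome 4 symbols 45 were found in the zone, and 4 of these genes had an optimal summit at a start, namely Sox102F, gw, PlexA and RpS3A, against 18.4% of all coding genes. A pooled entry stood at the starts of 21, a replicate 2 entry at 6 and a replicate 3 entry at 28. Beside the 50.8%, 31.8% and 56.5% of all coding genes, the pooled and replicate 3 counts lie near the general shares. The replicate 2 count lies below its general share. Values in replicate 3 included 61.4 at Mitf, 60.8 at Pur-alpha, 55.8 at lgs, a cofactor of Wingless signalling, and 42.9 at ci, the transcription factor gene of the Hedgehog pathway. None of these 4 genes had an entry of replicate 2 at a start. At further starts of the list an entry was in a single replicate list and not in the pooled one, mostly in replicate 3. Among these, ATPsynbeta, an ATP synthase subunit gene, had 70.6 in replicate 3, the highest replicate 3 value at a start of the list. Rad23 had 66.3, onecut 36.0 and toy 30.5 in replicate 3, and bt was the only such gene in replicate 2, with 24.6.

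The third question was how the 2 replicate lists compared. Replicate 2 listed 1558 of its 30000 entries in the zones and replicate 3 listed 572, so that the zones took 3.55% ± 2.32 (SD, n = 2) of a list. The difference did not run one way in all zones. On 3L replicate 2 had 693 entries and replicate 3 had 37, on 3R 357 and 20, and on 2L 233 and 56. The X zone had 122 in replicate 2 and 73 in replicate 3. On chromosome 4 the order turned, with 153 in replicate 2 and 386 in replicate 3. With 2 samples no test over samples could be made. The lists are capped at the same length, so that absence from a list need not mean absence of signal. Why an entry was absent was not tested.

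**Figure D2:**
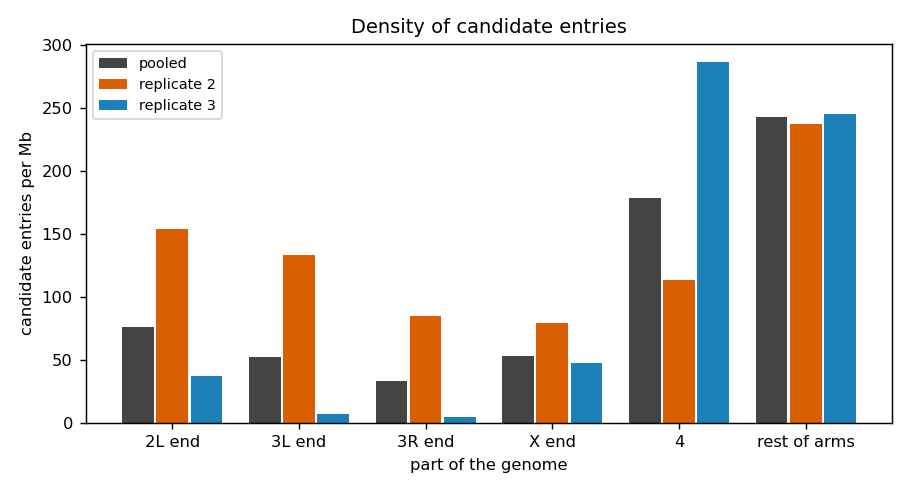
Candidate entries per Mb in the centromere-proximal zones of 4 arms, on chromosome 4 and in the rest of the 6 arms, for the pooled list and both replicate lists. Replicate 2 stands above replicate 3 at all 4 arm ends and below it on chromosome 4, while over the rest of the arms together they have 236.9 and 245 per Mb.

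Along 3L and 3R the replicate 3 entries thinned out near the zone boundary. In the 500 kb steps within 5000 kb of the assembled end of 3L, replicate 3 had 0 to 7 entries and replicate 2 had 29 to 106. In the next 3 steps outward, replicate 3 had 75, 60 and 77 and replicate 2 had 136, 118 and 122. On 3R replicate 3 had no entry in the first 4000 kb, where replicate 2 had 2 to 57 per step, and in the step after it replicate 3 had 123 and replicate 2 had 111. All 20 replicate 3 entries of the 3R zone thus lay in its outermost stretch, beyond 4000 kb. In the steps that lie wholly inside these zones, the pooled list had fewer entries than replicate 2 and at least as many as replicate 3. Gaps between the replicates also occurred outside the zones. On 2L, between 5500 and 6000 kb from the end, replicate 2 had 174 entries and replicate 3 had 30, and on X, between 7500 and 8000 kb, they had 39 and 149.

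**Figure D3:**
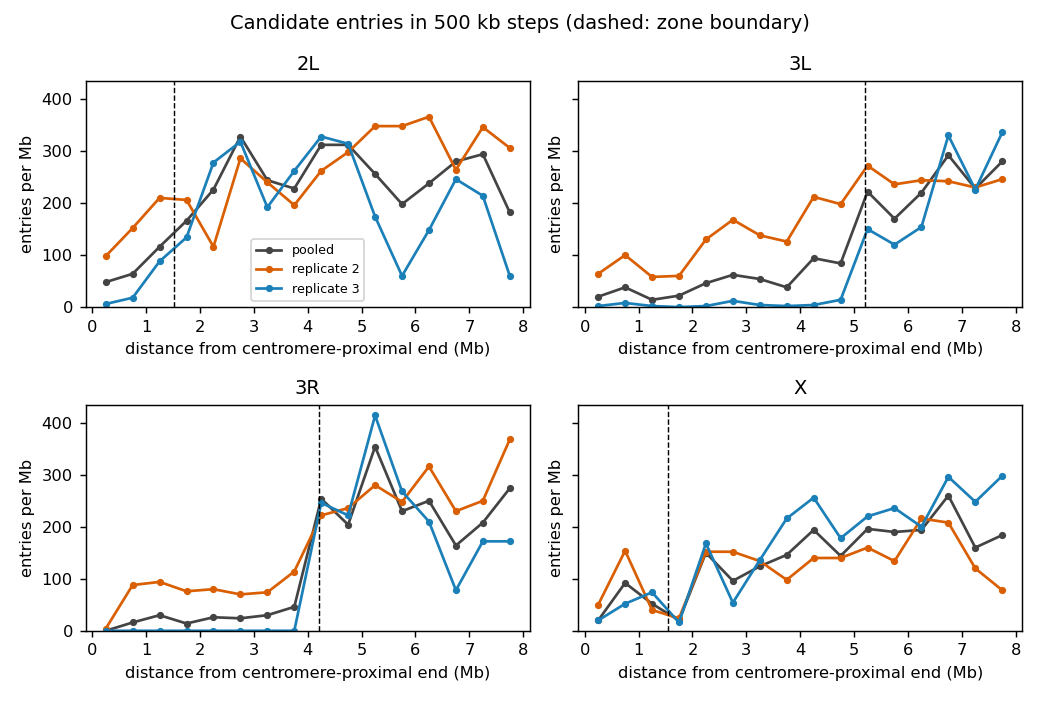
Candidate entries per Mb in 500 kb steps from the centromere-proximal end of the assembled arm, for the pooled list and both replicates, with the zone boundary dashed. On 3L and 3R the replicate 3 line stays near 0 inside the zone and rises at the boundary, and replicate 2 stays above it there.

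The replicate 2 entries at these ends were mostly away from gene starts. Of its 1283 entries at the 2L, 3L and 3R ends 58 were at promoters (4.52%), and of the 113 of replicate 3 there 37 were (32.7%), against 18.6% and 35.6% in the rest of the arms. In replicate 2, the median signal of these 1283 entries was 28.2, against 30.1 over its whole list.

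Presence of the pooled members in the replicate lists followed the same division. Of the 832 members outside the optimal list, 473 had their summit in an entry of replicate 2 only, 169 of replicate 3 only, 74 of both and 116 of neither. The share in both was 8.89%, and it was 22.2% for entries of the same class elsewhere. On 3L 79.9% were in replicate 2 only and 4.38% in replicate 3 only, whereas on chromosome 4 the shares were 21.7% and 48.3%.

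**Figure D4:**
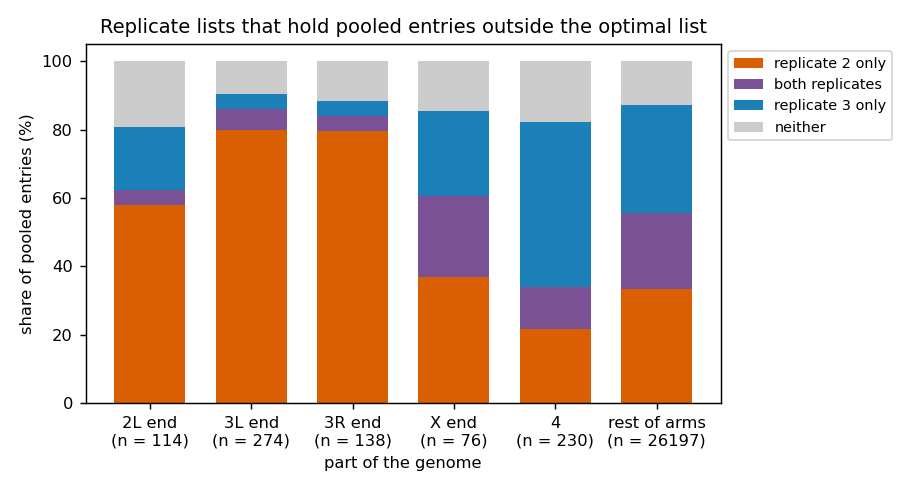
Share of the pooled entries outside the optimal list whose summit lay in an entry of replicate 2 only, of both replicates, of replicate 3 only or of neither, for each zone and for the rest of the arms. Entries in replicate 2 only fill most of the 3L and 3R bars (79.9% and 79.7%), and entries in replicate 3 only are the largest class on chromosome 4 (48.3%).

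The optimal members were listed in the replicates about as often as other optimal peaks. Of the 18, 15 had an entry in replicate 2, 17 in replicate 3 and 14 in both (77.8%), beside 79.3%, 99.2% and 78.6% of the optimal peaks elsewhere. Among the 18, 7 were among the 2971 strongest of both (38.9%, interval 17.3 to 64.3). For optimal peaks elsewhere the last share was 58.7%, inside that interval. All 6 on X, which include the overlapping pairs at CG14613 and CG12576, were in both lists, 4 of them among the strongest of both. On chromosome 4 all 11 were in replicate 3 and 8 in replicate 2, with 3 among the strongest of both.

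A few entries were strong in a single replicate and did not reach the optimal list. Replicate 2 had 20 members among its strongest 2971, of which 6 were not optimal. They lay in an intron of Pzl and at 39411 bp from the start of CG41128 on 3R, beyond Marf1 on 2L, near CG42598 on 3L, between genes on X and at the first bases of chromosome 4, with signals between 60.4 and 79.0. Replicate 3 had 12, of which 3 were not optimal, at Asator (103 and 76.8) and at CaMKII (72.3), the calcium- and calmodulin-dependent kinase gene. Replicate 3 had none among its strongest on 2L, 3L or 3R.

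The last question was what sequence the members carried. The strings were searched on both strands in the 100 bp around the summit. CAGGGCTG was present in 4 of 18 optimal members (22.2%, interval 6.41 to 47.6), 3 of 6 on X and 1 of 11 on chromosome 4. It was present in 4 of the 832 other members (0.481%), in 7.42% of the optimal peaks elsewhere and in 1.01% of all 30000 entries. The strongest member ranked 398, so that every stronger peak lay elsewhere. With the top-ranked optimal peaks elsewhere left out, the string was in 85 of the remaining 2654 (3.20%). This share lies below the interval of the optimal members, whereas 7.42% lies inside it. The 4 optimal members with CAGGGCTG, shown above, included the 3 strongest members. The looser string AGGGNTG, which every CAGGGCTG contains, was found in 5 of 18, the fifth being at dpr7, against 16.9% of optimal peaks elsewhere and 4.13% of all entries. Among the same 2654 peaks its share was 10.6%. The interval of the optimal members for AGGGNTG, 9.69 to 53.5, holds both 16.9% and 10.6%.

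Strings of other insulator and promoter proteins were also counted. CGATA, the string of BEAF-32, was in 3 of 18 optimal members (interval 3.58 to 41.4), all on X. It was in 22.9% of the optimal peaks elsewhere, in 20.4% of the other chromosome 4 members and in 14.0% of all entries. TATCGATA, the string of DREF, which contains CGATA, was in 1 optimal member, the peak at CG12576. It was in 4.06% of the optimal peaks elsewhere and in 1.12% of all entries. GGTCACACT, the string of M1BP, was in none of the 850 members (interval up to 0.433%) and in 0.520% of all entries. A string missing from a window says only that these letters are not in it.

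Copies of CAGGGCTG in the zones were mostly without a peak. The 5 zones held 168 copies (12.2 per Mb), of which 4 (2.38%, interval 0.652 to 5.98) lay in the 100 bp around an optimal summit. In the rest of the arms 231 of 1936 copies (11.9%, at 16.1 copies per Mb) did. Repeat-masked copies were 22.6% of those in the zones and 1.14% of those elsewhere. With masked copies left out, the shares near an optimal summit were 4 of 130 (3.08%) in the zones and 12.1% elsewhere. The zones differed in this. On 2L none of 12 copies, on 3L none of 70 and on 3R none of 36 was at an optimal peak, and on chromosome 4 1 of 11 was, the one upstream of fuss. On X 3 of 39 were (7.69%), and 3 of the 21 unmasked copies (14.3%), near the 12.1% elsewhere.

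No second copy of the 50 bp around the summit was found in the reference genome for any of the 18 optimal members, and no other place matched a whole interval at 80% identity over 80% of its length. For the peak at the end of 2L this says only that no other stretch of the assembly matched it so closely. That peak holds a tandem repeat whose unit recurs in the bases beyond it and in other runs. Among all members, 14 (1.65%) had a 50 bp core with further exact copies, against 36 entries (0.123%) elsewhere.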

How the data were processed

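ChIP-seq peak lists of 2 biological replicates of 1 group were used. Per the labels, the authors deposited lists on the builds dm6 and dm3, for each replicate, for the pooled replicates and, as optimal peaks, after the irreproducible discovery rate procedure. The deposited signal value is a score whose scale is not given, and it only ranked, filtered and described entries within a list. For the aligner and the peak caller, name and version were not given in the sources used here, and no list holds read counts, so that depth is unknown.

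Summits were placed on Release 6 (dm6) and Ensembl release 115 (BDGP 6.54) with Python 3.11.15, pandas 2.3.3 and scipy 1.17.1, and copies were sought with blastn 2.17.0 (E-value at most 1e-10). A member was found in a replicate when a replicate entry held its summit, and an entry was strong when among its list's 2971 strongest. Coordinates count from 1. The dm3 lists served only as an alternative for chromosome 4 and for 1 further value. The scripts were tested on simulated data.

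No test was made, since there were 2 samples of 1 group. Named were the 18 optimal members, the 5 strongest others and the genes of 2 lists, beside genes named after their values were seen. Members, lists and strings were chosen with earlier results of these data known. The gene lists held 35 and 52 symbols, of which 33 and 48 matched the annotation.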

Additional observations from a re-analysis of the deposited data

Results flagged for a closer look

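The dm3 build keeps part of the heterochromatin as separate sequences, which no comparison above used. How far these sequences overlap the dm6 zones was not examined. Of the 30000 dm3 entries of each replicate, 1087 of replicate 2 and 28 of replicate 3 lay on these sequences, with a highest signal of 67.3 in replicate 2 and 66.4 in replicate 3. The pooled list had 415 there and the optimal list none. These counts were singled out because they lie in data outside the main lists, and control samples were not analysed here.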

How the results depend on the processing

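Of 28 alternative settings, 19 left a value inside the interval of the reported one (for the median signal, inside its interquartile range) and 9 moved it. The share of members in the optimal list (2.12%) moved to 3.69% with arm zones wider by 0.5 Mb, 1.15% without chromosome 4, 4.56% on chromosome 4 alone, 4.08% there on dm3 and 0.941% for the stronger part of the optimal list. The last of these settings also takes a smaller share of all entries. With the strongest 10000 entries taken instead, the share of members was 13.2%, against 33.3% of all pooled entries. That setting was chosen after seeing the data, as were joining overlaps and leaving out the 2L end. Taking the list of one replicate in place of the pool, the share of members was 1.28% without replicate 3 and 2.10% without replicate 2. The share strong in both replicates (38.9%) was 77.8% with any entry of the whole lists. The median signal of 181 became 80.6 without replicate 3 and 132 without replicate 2, since replicate lists have lower signal values. In the same way 8 of 20 and 5 of 12 were at promoters, and 4 of 20 and 4 of 12 had CAGGGCTG. The share strong in both cannot be had with a replicate left out. No paired analysis was possible because there was 1 group. Limits are the unknown depth, the capped lists, and the few optimal members in each zone.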
